A study of Mus musculus with 8 samples.

Results

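Cytosolic ribosomal protein transcripts were examined in mouse embryonic fibroblasts (MEFs) with and without Cre-mediated loss of H3f3b, one of the genes for the replacement histone H3.3. Members were chosen by gene symbol, with Rpsa, Rplp0, Rplp1 and Rplp2 added by name. A symbol had to be Rpl or Rps with a number, then optionally a letter a, x, y or l and more digits. Rpl36al therefore falls outside the rule. Beyond detection that rule used no expression value, but it was chosen with earlier results of these data known. The array carried 81 such probes for 63 genes, and 67 probes of 55 genes had a detection p-value under 0.05 on at least 3 of 8 arrays. These 55 genes, 33 of the large subunit and 22 of the small subunit, are the members described here among 8488 genes tested. RefSeq lists 84 protein-coding mouse genes whose symbols fit the pattern, so 29 of them are not among these members.

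The cytosolic ribosome joins a large subunit, which forms peptide bonds, to a small subunit, which reads the mRNA. Each subunit needs its proteins in fixed proportions with the ribosomal RNA, and in mammals surplus ribosomal protein is degraded soon after synthesis. Their transcripts are among the most abundant in growing fibroblasts. Most begin with a 5′ TOP, an unbroken run of pyrimidines starting with C, through which mTOR signalling sets their translation, so that output can change without a change in mRNA level.

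Cells of all groups were C57BL6J MEFs of genotype H3f3b Fl/Fl from E12.5 embryos. Each of 3 lines, named cKO1, cKO2 and pcKO1, received a retrovirus carrying either Cre with GFP or GFP alone, which made 4 Cre and 4 GFP arrays because cKO2 was run in duplicate in both arms. The GFP arm thus carried the floxed alleles and a retroviral vector but no Cre. The labels do not say whether the lines came from separate embryos, and in the table with detection p-values, whose columns cannot be tied to lines, 1 cell name stands for 2 of the 4 pairs, once as pooled cells. Some lines may therefore share a source, and p-values and SEs over n = 3 lines measure only the spread between these cultures. Every level below is a log2 intensity of bulk RNA, in which a change in the number of cells and a change in RNA per cell cannot be told apart. Levels are given in the order GFP then Cre, and a change is Cre minus GFP.

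The target transcript H3f3b had log2 changes of -5.32 in line cKO1, -5.11 in line cKO2 and -2.17 in line pcKO1, so the arms matched their labels but pcKO1 kept more of it. The mean scanner signal of an array was between 341 and 626. All 8 fibroblast markers examined were detected. None of the 5 endothelial and 4 erythroid markers was detected, but only 2 of the erythroid ones were on the array. Macrophage, skeletal muscle, neuron and epithelial lists had 5, 4, 5 and 3 genes on the array, of which 1, 1, 3 and 1 were detected. In cKO1, cKO2 and pcKO1 the macrophage gene Adgre1 changed by 0.75, -0.06 and 0.25. In the same order the muscle gene Des changed by -0.28, 0.06 and -0.57 and the epithelial gene Krt8 by -0.32, -0.10 and 0.11. The summed intensity of the 3 neuronal genes (Dcx, Map2 and Stmn2) spanned 337 to 730 over GFP arrays and 295 to 714 over Cre arrays, and the part of any such cells in the results below was not tested. Ribosomal protein probes held between 7.06% and 8.04% of the total signal of an array, with 8.02%, 7.70%, 7.90% and 7.36% on the GFP arrays of cKO1, cKO2 (both duplicates) and pcKO1 and 7.76%, 8.04%, 7.59% and 7.06% on their Cre partners. The share was lower after Cre in 3 of 4 pairs and higher in the first cKO2 pair.

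The main comparison asked whether ribosomal protein transcripts changed after Cre. The median change over the 55 genes was -0.01, beside -0.01 over all genes tested. Quantile normalization gives every array the same set of values, and most members are bright, so it can reduce a shift that members share. With the deposited values as they stand, the medians were -0.045 over members and 0.02 over all genes tested. No member passed an adjusted p of 0.05 in the limma fit with the line as a block, and 0% of all genes tested did. The deleted gene H3f3b, with a mean change of -4.20, had a limma adjusted p of 0.188. No gene tested had a smaller one, but the value was not unique to H3f3b. The threshold thus did not call even that gene. No member had an unadjusted p under 0.05 in that fit either, against 312 genes or 3.68% of all genes tested. The smallest adjusted p of a member was 0.967 and the smallest unadjusted p was 0.0568, for Rps13. With 3 lines the fit had 2 residual degrees of freedom and SEs of 0.07 to 0.18. Variances were moderated toward those of all genes tested, which added 6.3 prior degrees of freedom. The 95% confidence intervals rest on both, and lay within a 1.5-fold change in either direction for 54 of 55 members. The exception was Rpl27a, whose interval ran from -0.63 to 0.08. The intervals thus bound the mean change of nearly every member as read by its probe of highest mean, but do not show that levels were equal. Another probe of the same gene could read a larger change, such as -0.36 ± 0.10 (SE, n = 3 lines) for the second probe of Rps3. At the top of the scale, where normalization sets values by rank, a narrow interval does not bound the change of the transcript itself.

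Direction was shared by all lines in few members. There were 7 members lower in all 3 lines, which is 12.7% of members beside 13.2% of all genes tested. Another 6 members were higher in all 3 lines, which is 10.9% of members beside 12.6% of all genes. Both shares were thus close to those of the array as a whole. The split between directions depended on scaling: with every array scaled to a common median, 16 members were lower and 0 higher in all 3 lines, and the median of all genes tested moved to -0.06.

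**Figure D1:**
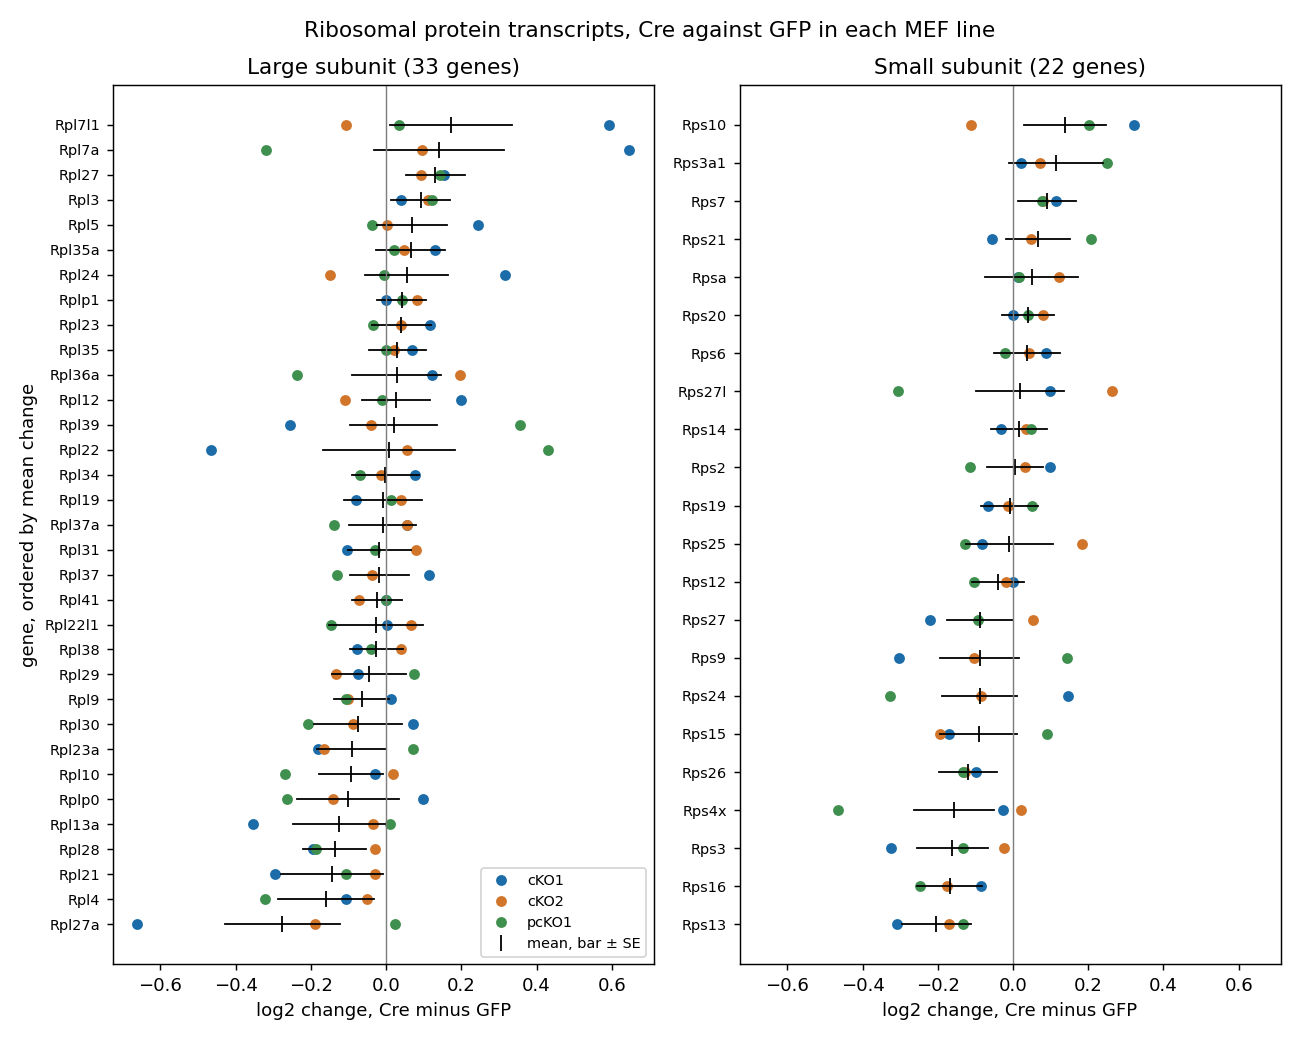
Log2 change, Cre minus GFP, of each of the 55 ribosomal protein genes in lines cKO1, cKO2 (mean of duplicates) and pcKO1 (colored points), with the mean over lines (tick) and its SE from the limma fit (bar), by subunit. Means lie between -0.28 (Rpl27a) and 0.17 (Rpl7l1), and the points of cKO1 are the most widely scattered.

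Rps13, a small subunit protein, was the member with the smallest p and was lower after Cre in all 4 pairs. Its level went from 13.72 to 13.41 in cKO1, from 13.42 to 13.25 and from 13.41 to 13.24 in the cKO2 duplicates, and from 13.49 to 13.36 in pcKO1. The mean change was -0.20 ± 0.09 (SE, n = 3 lines; limma adjusted p = 0.967). Within each line every Cre array was below its GFP array, while the arms overlapped when lines were ignored because the Cre array of cKO1 lay at the level of the GFP arrays of cKO2.

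Rps16 had the next smallest p among members, with 14.10 and 14.01 in cKO1, 13.86 and 13.70 then 13.85 and 13.66 in cKO2, and 13.91 and 13.66 in pcKO1. Its mean change was -0.17 ± 0.09 (SE, n = 3 lines; limma adjusted p = 0.967), and it too was lower in every pair. Rps26, which lines the mRNA exit channel, had the most even change of the 7, with -0.10, -0.13 and -0.13 in cKO1, cKO2 and pcKO1. The other members lower in all 3 lines were Rps3 (mean -0.16), Rpl4 (-0.16), Rpl21 (-0.14) and Rpl28 (-0.14). Rps3 sits at the mRNA entry site and Rpl4 reaches into the peptide exit tunnel. The cKO2 duplicates of Rps3 went in opposite directions, with 0.13 in the first pair and -0.17 in the second, and so did those of Rpl21 with -0.06 and 0.00.

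Among the members higher in all 3 lines, Rpl27 had the largest mean. Its level was 14.13 and 14.29 in cKO1, 14.35 and 14.45 then 14.33 and 14.41 in cKO2, and 14.23 and 14.37 in pcKO1. It was higher after Cre in all 4 pairs, by 0.13 ± 0.08 on average (SE, n = 3 lines; limma adjusted p = 0.967). Rps7, one of the genes mutated in Diamond-Blackfan anemia, was also higher in all 4 pairs, with changes of 0.12, 0.07, 0.09 and 0.08 in the order of cKO1, the cKO2 duplicates and pcKO1.

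The remaining 4 were smaller or less even. Rps3a1 had a mean of 0.11, of which 0.25 came from pcKO1 and 0.02 from cKO1. Rpl3, a protein of the peptidyl transferase center, had 0.04, 0.11 and 0.12 in the 3 lines, and its second cKO2 pair stood at 0.00. Rpl35a had 0.13, 0.05 and 0.02. Rpsa, the small subunit protein also known as the laminin receptor precursor, had 0.01, 0.12 and 0.02, but its cKO2 duplicates were -0.31 and 0.55, so its shared sign rests on averaging 2 pairs that disagreed. The same held for Rps3a1, with 0.24 and -0.09, and for Rpl35a, with 0.16 and -0.07. Such disagreement was common, since 28 of the 55 members had the same sign in both cKO2 pairs. The difference between those pairs had an SD of 0.20 over members, beside 0.15 and 0.13 for the changes in each pair. Small changes of a member in a single pair are thus uncertain.

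The spread of member changes was widest in cKO1. Over the 55 members the change had an SD of 0.22, 0.10 and 0.17 in cKO1, cKO2 and pcKO1, beside 0.42, 0.18 and 0.26 over all genes tested. The cKO2 change averages duplicate pairs, which narrows its spread, while the other lines have a single pair. Taken singly, the cKO2 pairs had member SDs of 0.15 and 0.13. Because most members were bright, they were also set beside the 122 other genes whose mean log2 intensity was above 13, a level chosen after the data were seen. Their SDs were 0.32, 0.10 and 0.20, against 0.16, 0.10 and 0.16 for the 39 members above that level. In cKO1 the spread of bright members was thus narrower than that of other bright genes, while in cKO2 the values were alike to the second decimal. The sets were not matched for brightness above that level. Members took 8 or 9 of the 20 brightest places on every array, where quantile normalization sets a value by rank. The narrower spread is therefore not read as a trait of members.

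A change past 1.5-fold was seen in 3 members in cKO1 (5.45% of members beside 13.4% of all genes tested), in no member in cKO2 (beside 0.495%) and in no member in pcKO1 (beside 3.24%). The 3 were Rpl27a, Rpl7a and Rpl7l1. In all of them both cKO2 pairs stayed inside that limit. Counts for cKO2 rest on averaged duplicates, so they are not on the same footing as those of the other lines.

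Rpl27a, a large subunit protein, had the lowest mean of all members. Its levels were 11.00 and 10.34 in cKO1, 11.41 and 11.03 then 11.26 and 11.26 in cKO2, and 11.09 and 11.11 in pcKO1. Its mean change of -0.28 ± 0.15 (SE, n = 3 lines; limma adjusted p = 0.967) was made by cKO1 and by 1 of the cKO2 pairs, while the other pairs stood at 0.00 and 0.02.

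Rpl7a, which binds the large subunit rRNA, went the other way in the same line. It stood at 11.71 and 12.36 in cKO1, at 11.91 and 12.07 then 11.80 and 11.83 in cKO2, and at 12.07 and 11.75 in pcKO1. The change of 0.65 in cKO1 and of -0.32 in pcKO1 gave it the widest range between lines of any member. Rpl7l1, a paralogue of Rpl7, was at 10.29 and 10.88 in cKO1, at 9.96 and 9.91 then 9.85 and 9.69 in cKO2, and at 9.80 and 9.83 in pcKO1, so its mean of 0.17, the highest of all members, came from cKO1.

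Rpl39, a very small protein of the exit tunnel wall, had opposite changes in the 2 lines without duplicates. It went from 14.79 to 14.53 in cKO1 and from 14.47 to 14.83 in pcKO1, while in cKO2 it was at 14.71 on both arrays of the first pair and at 14.77 and 14.70 in the second. Rpl39 is X-linked, as are 3 more members, a group picked out after their values were seen. The other 3 were lower in pcKO1, namely Rps4x with -0.46, Rpl10 with -0.27 and Rpl36a with -0.24. In cKO1 they stood at -0.03, -0.03 and 0.12. Among all members 31 of 55 were lower in pcKO1, beside 4322 of 8488 genes tested. X-linked genes outside the members were not counted.

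**Figure D2:**
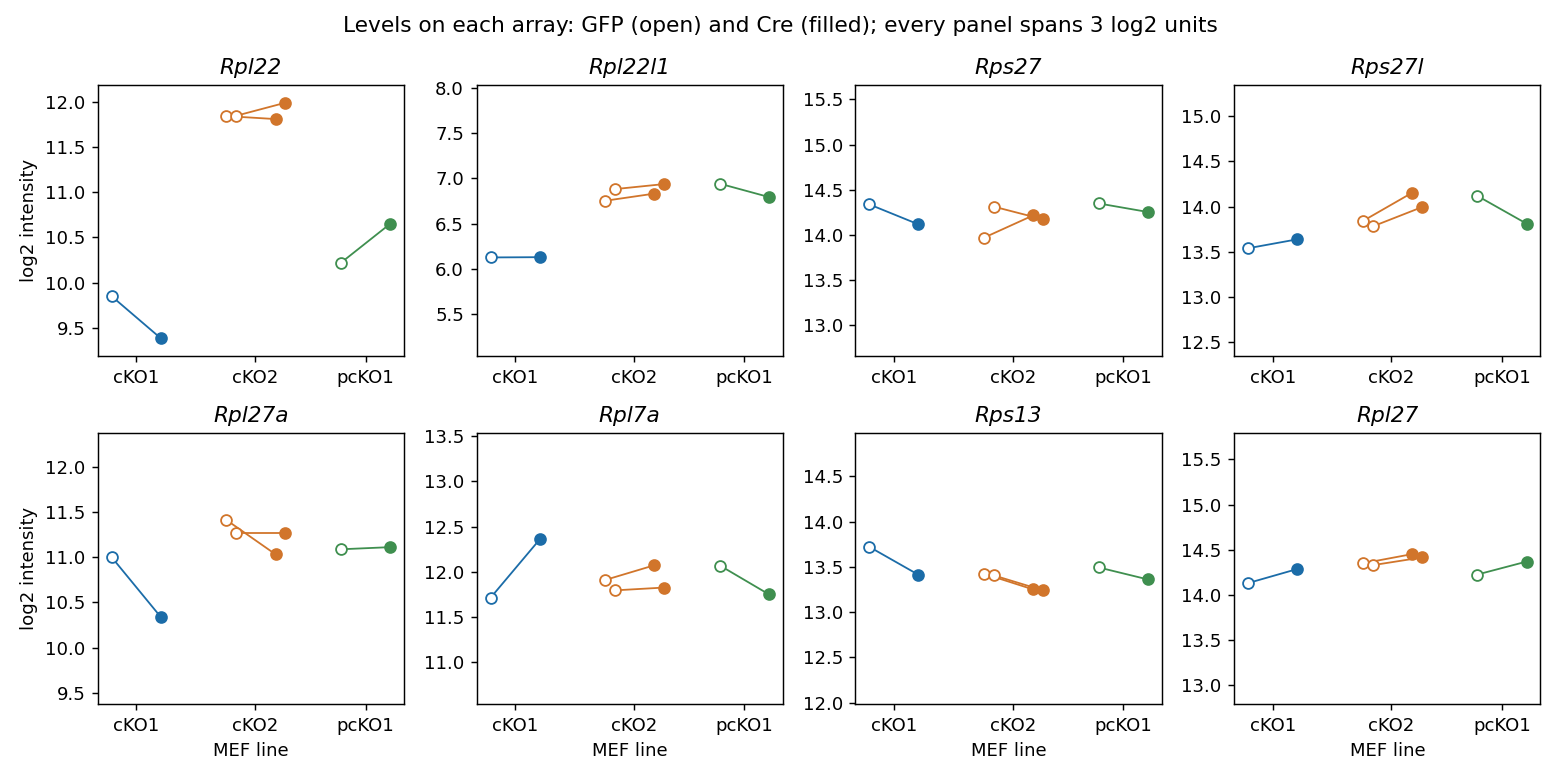
Log2 intensity of 8 ribosomal protein genes on each array, with GFP as open and Cre as filled circles joined within a pair and the 3 lines side by side. Rpl22 lies between 11.81 and 11.99 on the cKO2 arrays and between 9.38 and 10.65 on the others, whereas Rps13 is lower and Rpl27 higher after Cre by a small step in every pair.

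The widest difference in the data on ribosomal proteins lay between lines and not between arms. Rpl22 is an RNA-binding protein of the large subunit surface that mice can live without and that their αβ T cells need. Its level was 9.85 and 9.38 in cKO1, 11.84 and 11.81 then 11.85 and 11.99 in cKO2, and 10.22 and 10.65 in pcKO1. In the GFP arm cKO2 was 3.99-fold above cKO1, and in the Cre arm 5.72-fold. All 4 cKO2 arrays were above all 4 arrays of the other lines.

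Its range of 2.00 between lines in the GFP arm compares with a median of 0.27 over members and of 0.53 over all genes tested. It was the only member with a range above 1, which 18.2% of all genes tested had, and 312 genes had a wider one. A further 9 members had a range above 0.5, among them Rps6 (0.68), Rpl21 (0.63), Rpl37a (0.63), Rps25 (0.60) and Rps27l (0.58). With 1 array for cKO1 and pcKO1 in each arm these ranges carry no test, and the GFP duplicates of cKO2 themselves differed by 0.55 for Rps25, at 11.66 and 12.21.

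Rpl22 also had opposite changes after Cre in cKO1 and pcKO1, with -0.47 and 0.43, and -0.03 and 0.14 in the cKO2 duplicates. The mean of 0.01 ± 0.18 (SE, n = 3 lines; limma unadjusted p = 0.970) thus averages cKO1 and pcKO1 values of opposite sign. Rpl22l1, the paralogue whose mRNA rises in mice that lack Rpl22, was detected on 6 of 8 arrays and read 6.13 and 6.13 in cKO1, 6.75 and 6.83 then 6.88 and 6.94 in cKO2, and 6.94 and 6.79 in pcKO1. These levels are close to the limit of detection, so its differences between lines are not read as a measure of abundance.

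Rps27 and Rps27l are another pair of paralogues among the members, and Rps27l is a known p53 target. Rps27l was higher after Cre in both cKO2 pairs, from 13.84 to 14.15 and from 13.78 to 13.99, and stood at 13.54 and 13.64 in cKO1 and at 14.12 and 13.81 in pcKO1. Rps27 read 14.34 and 14.12 in cKO1, 13.97 and 14.22 then 14.31 and 14.17 in cKO2, and 14.35 and 14.25 in pcKO1. The mean changes were 0.02 ± 0.12 and -0.09 ± 0.09 (SE, n = 3 lines), and neither paralogue passed the limma test (adjusted p of 0.996 and 0.967).

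Sequence around the annotated start sites shows how unlike these members are at the 5′ end, and the ones below are those of members with large or divided changes and of the paralogues read above, with Rps6 as an example of a pyrimidine run at the start of a member with small changes. Each line gives the 10 bases before the start and the first 20 of the transcript, 5′ to 3′ on the gene's strand, from RefSeq on GRCm38.p6, with the longest pyrimidine run in capitals.
Rpl27a, chr7:109519185-109519214, plus strand: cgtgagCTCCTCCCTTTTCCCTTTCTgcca
Rpl7a, chr2:26910797-26910826, plus strand: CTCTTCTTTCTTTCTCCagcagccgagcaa
Rps6, chr4:86857348-86857377, minus strand: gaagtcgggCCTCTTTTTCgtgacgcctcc
Rps27, chr3:90213629-90213658, minus strand: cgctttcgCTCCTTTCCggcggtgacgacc
Rps27l, chr9:66946076-66946105, plus strand: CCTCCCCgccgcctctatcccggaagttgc
Rpl22l1, chr3:28805498-28805527, plus strand: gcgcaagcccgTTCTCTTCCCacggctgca
Rpl22, chr4:152325716-152325745, plus strand: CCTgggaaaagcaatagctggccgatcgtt
Rpl39, chrX:37085203-37085232, minus strand: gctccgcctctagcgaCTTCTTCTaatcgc
Rpl7l1, chr17:46782637-46782666, minus strand: gCTgcgcaagcgcagtagctgaagcaccgg
Rps13, chr7:116334171-116334200, minus strand: caaacgtcggtgagtggcgtcaCTTCCTgt
Rps16, chr7:28350679-28350708, plus strand: TTCTgtcgtgacgtagcactcaatgcgcct
Rpl27a had the longest run, 20 bases, and was lower in cKO1, whereas Rpl7a with 17 bases was higher in that line. Rps13, Rps16 and Rpl22 had no run longer than 6, 4 and 3 bases at the start annotated here, although annotated starts can miss the main one and Rpl22 and Rps27l each have a second entry.

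Start entries were found for 47 of the 55 members, 57 in all. In the window of 30 bases, a pyrimidine run of at least 8 bases was present in 31.6% of member entries against 11.2% of 32851 entries of all genes, and a run of at least 10 in 22.8% against 4.77%. By gene, 18 of 47 members had a run of at least 8, among them 2 of the 6 members with an entry that were lower in all 3 lines and 1 of the 5 that were higher. Over the full 300 bases and both strands, CCGGAAG, an Ets-type motif, was in 35.1% of member entries against 8.86% of all, AAGATGGC, a YY1-type motif, in 12.3% against 2.75%, and GGGCGG, a GC box, in 63.2% against 35.7%. In the 75 entries of mitochondrial ribosomal protein genes these motifs were present in 34.7%, 16.0% and 52.0%, so they are shared with that family, while a pyrimidine run of at least 8 bases was in 8.0% of them. TATAAA was in 10.5% against 13.6%. These letters describe the sequence only, and no binding was measured.

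Large and small subunit genes were compared because they are needed in equal numbers. The median change was -0.01 for the 33 large subunit genes and -0.01 for the 22 small subunit genes. By line, in the order cKO1, cKO2 and pcKO1, large subunit medians were 0.01, -0.01 and -0.03 and small subunit medians -0.03, 0.03 and -0.06. In cKO1 the large subunit had 18 genes higher and 13 lower, and the small subunit 8 higher and 12 lower. Over all genes tested, 4032 were higher and 4445 lower in that line. In pcKO1 the large subunit had 19 lower and 12 higher, and the small subunit 12 lower and 10 higher. All genes tested had 4322 lower and 4151 higher there. The members lower in all 3 lines were 3 large and 4 small subunit genes, and those higher were 3 and 3.

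Members with roles of their own were read singly. Rpl5 binds 5S rRNA and, when free of ribosomes, Mdm2. It read 13.83 and 14.07 in cKO1, 14.01 and 14.06 then 14.17 and 14.13 in cKO2, and 14.03 and 13.99 in pcKO1, for a mean of 0.07 ± 0.09 (SE, n = 3 lines). Rps6, the substrate of S6 kinase, had changes of 0.09, 0.04 and -0.02 in cKO1, cKO2 and pcKO1. Rps19, the gene most often mutated in Diamond-Blackfan anemia, had changes of -0.07, -0.01 and 0.05. Among the stalk proteins, which recruit translation factors, Rplp0 had 0.10, -0.14 and -0.26, and its first cKO2 pair had -0.30 against 0.02 in the second. Rplp1 stood between 15.52 and 15.68 on all arrays.

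Several members lie at the top of the intensity scale, where quantile normalization sets a value by rank. Ribosomal protein probes took 8 or 9 of the 20 brightest places on every array, and 4 members, Rplp1, Rpl41, Rps12 and Rps20, had a change of exactly 0.00 in cKO1 because they held the same rank in both arms. Small changes of such transcripts were not measurable on this scale. Rpl41, which encodes the shortest ribosomal protein, was at 15.62 on both cKO1 arrays and at 15.68 on both pcKO1 arrays.

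More than 1 detected probe was available for 11 of the 55 members. The range of the mean change between probes of a gene had a median of 0.16, beside 0.13 over 1950 genes with several detected probes on the whole array. Different probes of a gene can meet different transcripts. Ribosomal protein genes also have many near-identical processed pseudogenes, and whether any probe read those was not tested, so differences between probes remain uncertain.

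Rpl27a had a range of 0.30, but its second probe was detected on 3 of 8 arrays and read 6.35 to 6.84, near background, so no size is read from that difference. That probe gave 0.36, 0.06 and -0.33 in cKO1, cKO2 and pcKO1, against -0.66, -0.19 and 0.02 for the probe that stands for Rpl27a, so the pair differed in sign in every line. Among genes whose probes were detected on all arrays, Rps24 had the widest range, 0.26, and there both probes kept one sign within each line. Its second probe read 0.61, -0.02 and -0.09 against 0.15, -0.09 and -0.33.

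Rpl23, a large subunit protein that can also bind Mdm2, was read by 3 detected probes. The probe that stands for it gave 0.12, 0.04 and -0.03, and the other 2 gave 0.61, 0.14 and 0.12 and 0.72, 0.01 and 0.09. The mean changes were 0.04 ± 0.08, 0.29 ± 0.12 and 0.28 ± 0.17 (SE of the fit over all probes, n = 3 lines). In cKO1 2 of 3 probes were therefore past 1.5-fold although the gene was not counted so.

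The second probe of Rps3 gave a similar change in every line. It read 12.77 and 12.37 in cKO1, 12.49 and 12.20 then 12.46 and 12.11 in cKO2, and 12.80 and 12.44 in pcKO1. It was lower in every pair, by -0.40, -0.32 and -0.36 in the 3 lines, and its mean of -0.36 ± 0.10 (SE, n = 3 lines) had an unadjusted limma p of 0.00665 and an adjusted p of 0.962 over all probes. The probe that stands for the gene had -0.33, -0.02 and -0.13. Both probes were lower in all 3 lines, and the gap between them was widest in cKO2.

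**Figure D3:**
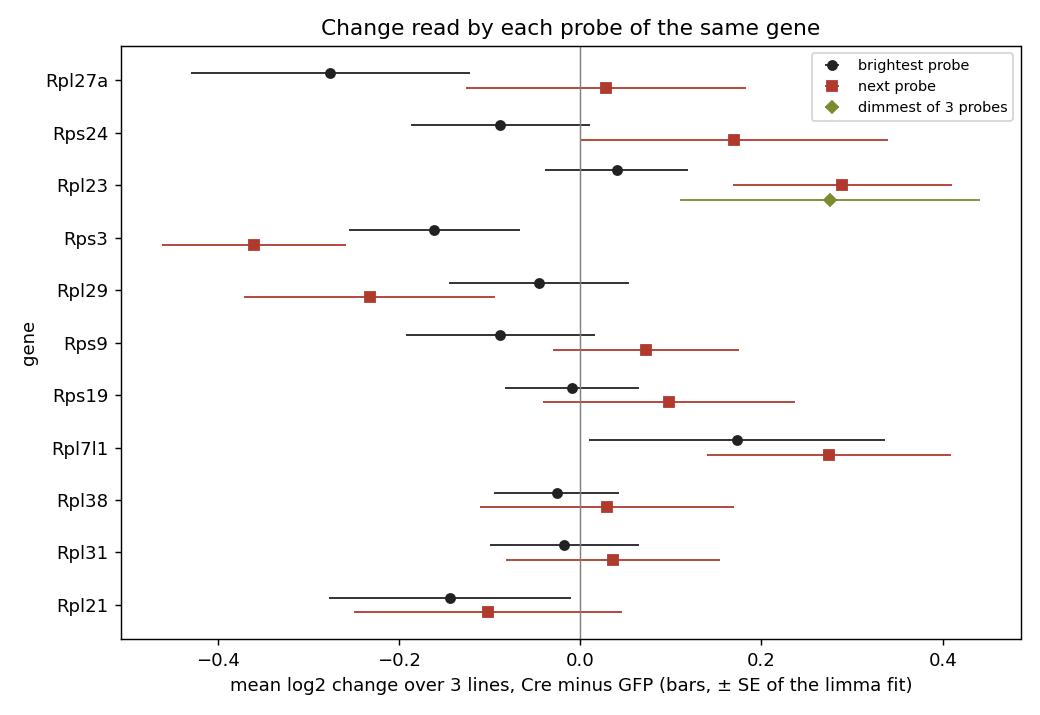
Mean log2 change over 3 lines for each detected probe of the 11 ribosomal protein genes with more than 1, with the SE of the limma fit over probes as bars and genes ordered by the range between their probes. The second probe of Rpl27a, at 0.03 ± 0.15, lies near background, and that of Rps3 lies at -0.36 ± 0.10.

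In Rpl29 the second probe gave -0.53 in pcKO1 where the first gave 0.07, and in Rps9 the second gave 0.17 in cKO1 where the first gave -0.30. The remaining 5 genes, Rps19, Rpl7l1, Rpl38, Rpl31 and Rpl21, had ranges of 0.04 to 0.11. The second Rpl7l1 probe, detected on 7 arrays, was higher in all 3 lines with 0.44, 0.10 and 0.28.

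The detection rule removed 14 probes, and 8 genes had no probe left: Rpl14, Rpl17, Rpl3l, Rpl39l, Rpl6, Rplp2, Rps15a and Rps23. Rpl3l, which is made in skeletal and heart muscle, and Rpl39l, known from testis, have a restricted tissue range. The other 6 encode proteins that every ribosome contains, and for them this array gave no level. Just outside the rule was Rps15a, detected on 1 array. Just inside it were Rpsa, on 4 arrays, and Rpl22l1, on 6, while the other 53 members were detected on all 8. Rpl23, Rpl37, Rpl4, Rplp0 and Rpsa each had a detected probe beside another that never passed. The levels of Rpsa, from 6.50 to 7.06, thus lay at the limit of detection, and no abundance is read from them.

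Genes that build or use ribosomes were set beside the members, from lists chosen with earlier results of these data known. No gene of these lists passed an adjusted p of 0.05 in the limma fit. The 42 measured ribosome assembly factors had medians by line, in the same order, of 0.36, -0.02 and -0.21, and 40 of 42 were higher in cKO1 while 36 of 42 were lower in pcKO1. Over all 8488 genes, 4032 were higher in the first of these lines and 4322 lower in the second. The 8 fibroblast markers had medians of -0.32, -0.19 and 0.33 in the same order of lines, and their part in this was not tested. The medians of the 55 ribosomal protein genes in those lines were 0.00, 0.00 and -0.03. Fbl, the rRNA methyltransferase fibrillarin, was lower in all 3 lines (-0.27 ± 0.12, SE, n = 3 lines) and so was the helicase gene Ddx18 (-0.17 ± 0.13), while Sbds, which helps to free the large subunit for joining (0.28 ± 0.14), and Imp3 (0.06 ± 0.11) were higher.

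The 69 mitochondrial ribosomal protein genes, a list added after the data were seen, had medians of 0.10, 0.04 and -0.15 and were lower in pcKO1 in 61 of 69 cases, against 31 of 55 cytosolic members. The 27 translation initiation factors had 0.15, 0.00 and -0.08. The 17 further 5′ TOP genes, such as elongation factors, had 0.11, 0.00 and -0.09 with none sharing a sign across the 3 lines. Among those 17, Rpl36al, which the symbol rule leaves out, had -0.34, 0.04 and -0.18. Eif3c, an initiation factor subunit, was lower in every line (-0.69, -0.52 and -0.03). Eif4ebp2, an mTOR-controlled repressor of initiation, had a mean of -0.23, and Eif4a3, a helicase of the exon junction complex, 0.02.

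Of 13 RNA polymerase I genes 4 were lower and 3 higher in all 3 lines, beside 13.2% and 12.6% of all genes tested, with list medians of 0.11, -0.08 and -0.13. The lowest were the rDNA activator Ubtf (-0.30 ± 0.15) and the subunit gene Cd3eap (-0.31 ± 0.15), and the highest Polr1c (0.26 ± 0.14) and Twistnb (0.12 ± 0.13; all SE, n = 3 lines). The 10 regulators of ribosome supply had medians of -0.11, 0.05 and 0.03, and among them Mdm2, the ubiquitin ligase that free Rpl5 binds, was higher in all lines with 0.02, 0.55 and 0.03. The 2 cKO2 duplicates of Mdm2 were 0.53 and 0.56.

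**Figure D4:**
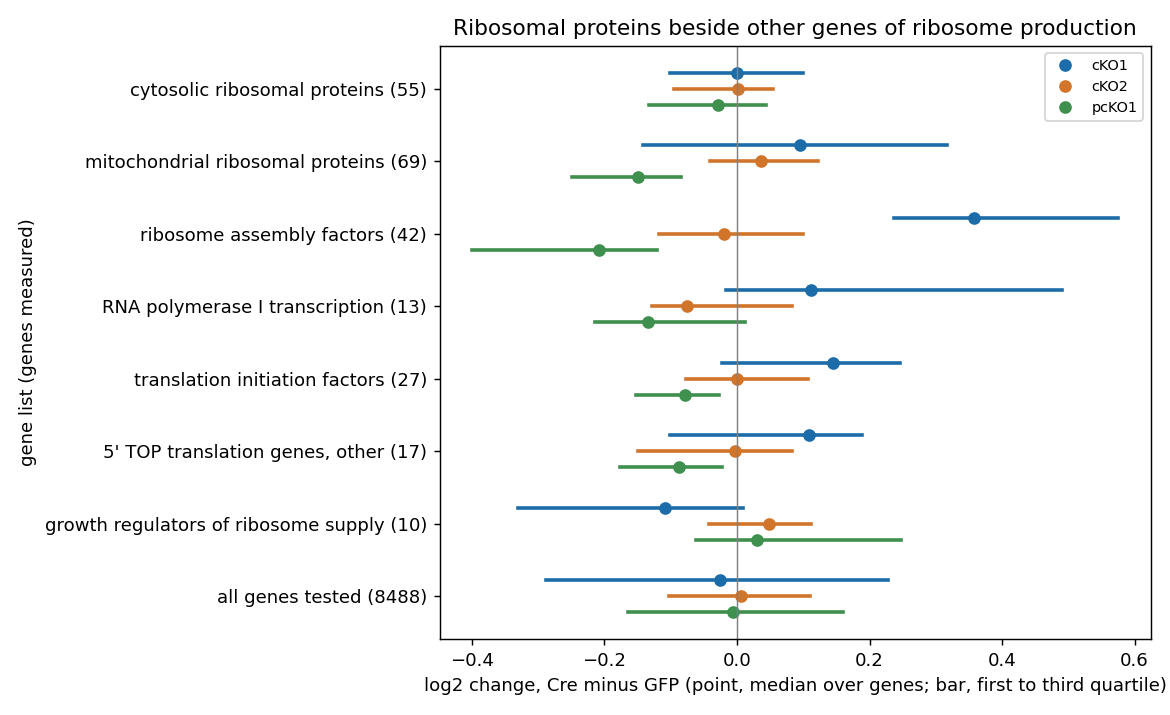
Median log2 change, Cre minus GFP, of each gene list in lines cKO1, cKO2 and pcKO1 (points), with bars from the first to the third quartile of its genes and the number measured in brackets. Ribosomal protein medians stay between -0.03 and 0.00, and assembly factors run from 0.36 in cKO1 to -0.21 in pcKO1.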

How the data were processed

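Biotin-labelled cRNA from each culture was read on an Illumina MouseRef-8 bead array of 1 color. The authors deposited average bead intensity per probe, exported from GenomeStudio, in 1 table named by sample, in which every array has the same mean, and in another with a detection p-value for each probe. The columns of that second table name the arm but no sample of the labels, so detection p-values were used over all 8 arrays. The intensities of the first table went through normexp background correction (offset 50), quantile normalization and a log2 transformation, and 11152 of 25697 probes with a detection p-value under 0.05 on at least 3 arrays were kept. Of all probes, 23978 had 1 symbol, 0 had several and 1719 had none, and 639 of the genes tested are probes without a symbol. Symbols were updated through Entrez identifiers to RefSeq (GRCm38.p6), which changed 0 member symbols. Each gene was represented by its probe of highest mean.

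Duplicates of cKO2 were averaged, and Cre was set against GFP with limma 3.58.1 in R 4.3.3 (lmFit and eBayes with intensity trend, two-sided), with the line as a block and Benjamini-Hochberg adjustment over 8488 genes at 0.05. The labels pair arrays by line, and the 2 arms of cKO1, cKO2 and pcKO1 deviated from their arm means together, with correlations of 0.82, 0.92 and 0.75 across genes. Line, subunit and probe comparisons carry no test. The number of arrays limits the precision, which the SEs and confidence intervals give.

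The members and lists were chosen with earlier results of these data known. Named members were, by rule, those with the same sign in all 3 lines, the 6 with the widest range between lines and the 6 between probes, paralogue pairs, proteins with roles of their own, and members nearest the detection limit, with the 2 lowest and 2 highest of each further list among genes with the same sign in all 3 lines. Rps4x, Rpl10, Rpl36a, Rpl37a, Rpl41, Rps12, Rps20 and Rps25 were named after their values were seen. Alternatives changed the normalization, background correction, detection filter, probe choice, trend, duplicates, pairing, lines and symbols. The cell type markers served only as a check of the cultures.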

Additional observations from a re-analysis of the deposited data

Results flagged for a closer look

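Results were marked here when 2 lines moved in opposite directions by more than 0.197, the SD of the difference between the cKO2 pairs over members. These differences were not tested, since cKO1 and pcKO1 have 1 pair each. The share of all genes tested that meets this rule was not counted. Over all genes the change had an SD of 0.42, 0.18 and 0.26 in cKO1, cKO2 and pcKO1, beside 0.22, 0.10 and 0.17 over members. The cKO2 values average duplicates, which narrows them. Opposite moves are thus not read as particular to members. Rpl22 had a change of -0.47 in cKO1 and of 0.43 in pcKO1. Rpl36a had a change of 0.198 in cKO2, where both pairs were higher but the mean was only just past the limit, and of -0.24 in pcKO1. Rpl39 had a change of -0.26 in cKO1 and of 0.36 in pcKO1. Rpl7a had a change of 0.65 in cKO1 and of -0.32 in pcKO1. Rps27l had a change of 0.26 in cKO2, where both pairs were higher, and of -0.31 in pcKO1. The median of the ribosome assembly factors was 0.36 in cKO1 and -0.21 in pcKO1, although the limit was set on single genes and not on list medians.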

How the results depend on the processing

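No ribosomal protein gene passed the adjusted threshold under any of 15 alternatives. With no replicate block the medians over all members, large and small subunit genes were -0.01 each. That was fixed in advance, since every line is in both arms and leaving out the block cannot move a mean change. With median scaling, 16 members were lower and 0 higher in all 3 lines, and the medians were -0.081 over all members, -0.078 for the large and -0.087 for the small subunit, and -0.18, 0.038 and -0.10 by line in the order cKO1, cKO2 and pcKO1, while the median of all genes moved to -0.06. With the deposited values as they stand, 12 were lower and 3 higher, with medians of -0.045 over all members, -0.042 and -0.050 for the subunits, -0.067 in cKO1 and -0.047 in pcKO1, beside 0.02 over all genes. Cyclic loess gave a pcKO1 median of -0.0049, the mean of the probes of a gene a small subunit median of 0.011, and cKO2 duplicates as separate pairs 2 members higher in all pairs. Leaving out 1 line at a time, the counts with 1 sign in the lines left were 13 to 16 lower and 8 to 16 higher, the medians -0.033 to -0.0018 over members, -0.037 to -0.0059 for the large and -0.046 to -8e-04 for the small subunit, and the median range between probes 0.063 to 0.18. Rpl7l1 ran from -0.037 without cKO1 to 0.31 without cKO2, and from the fit without pcKO1 to that without cKO1 Rpl22 ran from -0.20 to 0.24 and Rpl39 from -0.15 to 0.16. Among 568 values of 38 named members under alternatives, 37 more changed sign with both values within 1 SE of 0. The cause of these shifts was not tested. The alternative with negative controls inferred from detection p-values gave no line values. Members near background or at the top of the scale can hide changes.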
